A study of Homo sapiens with 4 samples.

Results

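Myosin light and heavy chains of heart muscle are described here through 10 genes, MYL2, MYL3, MYL4, MYL7, MYL6, MYL9, MYH6, MYH7, MYH7B and MYH10. They were chosen by name and matched by Ensembl identifier, and all 10 were among the 60234 genes counted. Levels are given as CPM, read counts scaled to library size with TMM factors, and all 10 genes, like 12407 of those counted, reached 10 CPM in 1 library or more. The cells came from the NKX2.5:GFP line, an established hESC line of genotype NKX2.5 eGFP/w in which GFP is made from the NKX2-5 locus and marks cells of the cardiac lineage, and all were differentiated to the cardiac lineage as spin embryoid bodies. Between day 4 and day 7 the treated cultures received RA at 1 µM and the control cultures DMSO, and cells were sorted at day 31 by GFP fluorescence. This gave 4 groups, control and RA-treated cells, each GFP-positive or GFP-negative, with 1 library per group. In GFP-positive cells the control library held 28643091 reads and the RA library 28125727, and in GFP-negative cells the control library held 4371101, by far the fewest, and the RA library 26222787. There are no replicates, so no test between conditions was possible, and the 95% intervals given with levels (exact Poisson) and with shares and ratios (exact Clopper-Pearson or conditional) cover counting error only. As a check of the sort, all 14 of 14 cardiomyocyte markers outside the myosin genes, TNNT2, ACTN2 and NKX2-5 among them, exceeded 2-fold in favour of the GFP-positive library in both treatments, where 12.7% (control) and 10.5% (RA) of all genes with at least 10 CPM in either fraction did.

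Myosin is built from a pair of heavy chains, which carry the motor and the rod, and from light chains of a regulatory and an essential kind that bind the neck of each heavy chain. In the heart, MYH6 encodes the fast alpha heavy chain, typical of the atria, and MYH7 the slow beta heavy chain, typical of the human ventricle. MYL7 and MYL4 encode the atrial regulatory and essential light chains, and MYL2 and MYL3 their ventricular counterparts, whereas MYL9, MYL6 and MYH10 encode chains of smooth muscle and non-muscle myosin.

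In control GFP-positive cells the atrial and fast genes were the most abundant of the 10 per length. The paper describes these control cells as mostly ventricular-like, so atrial and fast are names of the genes here and not of the cells. With RA the slow heavy chain gene MYH7 and the ventricular light chain gene MYL2 were lower, by 3.18-fold and 5.06-fold. MYH6 was at nearly the same level in both GFP-positive libraries. The reads of the 10 genes made up 1.27% of control and 1.08% of RA-treated GFP-positive libraries, and 0.216% and 0.196% of the GFP-negative libraries.

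MYH6 and MYH7 lie side by side on the minus strand of chromosome 14, at chr14:23851191-23877482 and chr14:23881949-23904869 of GRCh37, with 4466 bases between them. Their coding sequences, of 5817 and 5805 bases, were identical at 90.7% of the columns of their alignment, gaps included. The sequence thus shows how far reads of the pair can be separated. The longest identical run of 395 bases covered the whole of exon 26 of MYH6 and of exon 27 of MYH7, each of 390 bases. A stretch of 150 bases from this exon, at chr14:23859387-23859536 in MYH6 and chr14:23889175-23889324 in MYH7, is shown first. Coding stretches of 150 bases without a gap and inside a single exon of each gene were searched for the most differences. The stretch found, in exon 3 of both genes at chr14:23876280-23876429 and chr14:23902789-23902938, differed at 34 positions, shown in capitals.
MYH6 and MYH7, identical stretch: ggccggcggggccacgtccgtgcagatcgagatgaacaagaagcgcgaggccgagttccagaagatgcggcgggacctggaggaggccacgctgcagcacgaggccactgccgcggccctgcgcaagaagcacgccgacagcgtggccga
MYH6, exon 3: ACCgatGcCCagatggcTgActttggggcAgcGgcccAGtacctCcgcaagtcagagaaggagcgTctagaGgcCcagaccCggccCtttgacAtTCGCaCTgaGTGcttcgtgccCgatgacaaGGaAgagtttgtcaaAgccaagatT
MYH7, exon 3: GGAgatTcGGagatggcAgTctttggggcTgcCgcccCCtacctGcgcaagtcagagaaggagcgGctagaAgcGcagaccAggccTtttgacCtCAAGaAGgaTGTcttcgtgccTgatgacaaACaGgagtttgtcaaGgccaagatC
Of the 75-base windows of the spliced transcript, a read length of these libraries, 468 of 5866 in MYH6 (7.98%) and 475 of 5953 in MYH7 (7.98%) also occurred in other genes, 463 of each in the partner. Reads were paired and kept where they had a unique position, so a pair that lies wholly in such stretches may have been lost; how many were lost from either gene was not measured. Neither MYL2, MYL3, MYL4, MYL7, MYL9 nor MYH10 had a shared window, MYL6 shared 2.52% with other genes, all of it with its neighbour MYL6B, and MYH7B shared 1.05% with GSS.

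In the 2 GFP-positive libraries MYH6 had 6782 CPM in the control and 7088 CPM with RA. In GFP-negative cells it had 229 CPM in the control and 114 CPM with RA. The alpha heavy chain gene was thus high in both GFP-positive libraries, and its ratio of RA to control there was 1.05 (1.04 to 1.05), a log2(CPM + 1) difference of 0.06 that turned to -0.01 with scaling by library size. MYH7 had 2111 CPM in control and 664 CPM in RA-treated GFP-positive cells, and 51.3 CPM and 16.4 CPM in the GFP-negative cells. It was lower with RA in both fractions, with ratios of 0.315 (0.309 to 0.320) and 0.319 (0.272 to 0.375). In GFP-positive cells its log2 difference was -1.67, and 52 genes (0.465%), MYH7 included, of the 11186 tested because they reached 10 CPM in either library were at that value or below. In the GFP-negative cells its log2 difference was -1.59, but -0.50, under 2-fold, with scaling by the cardiomyocyte markers. Of these markers, 6 of 13 tested were at least 2-fold lower with RA there, where 3.58% of all genes were.

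Set against each other within a library, where scaling has no part, MYH7 took 23.7% (23.6 to 23.9) of the reads of the pair in control GFP-positive cells and 8.57% (8.45 to 8.69) with RA. In the GFP-negative libraries its share was 18.3% (16.2 to 20.5) and 12.5% (11.4 to 13.7). The 4 intervals did not overlap, and both control libraries lay above both RA-treated libraries. Per kb of exon, the level of MYH6 was 2.66 times that of MYH7 in the control and 8.83 times with RA in GFP-positive cells, and the ratio of MYH7 to MYH6 was 3.32-fold lower with RA (3.26 to 3.38). In GFP-negative cells it was 1.56-fold lower (1.31 to 1.86). Between the fractions the ratio was 1.39 (1.21 to 1.60) times as high in GFP-positive as in GFP-negative cells of the control and 0.654 (0.590 to 0.727) times as high with RA, and whether RA acted on it to a different extent in the fractions was not tested.

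**Figure D1:**
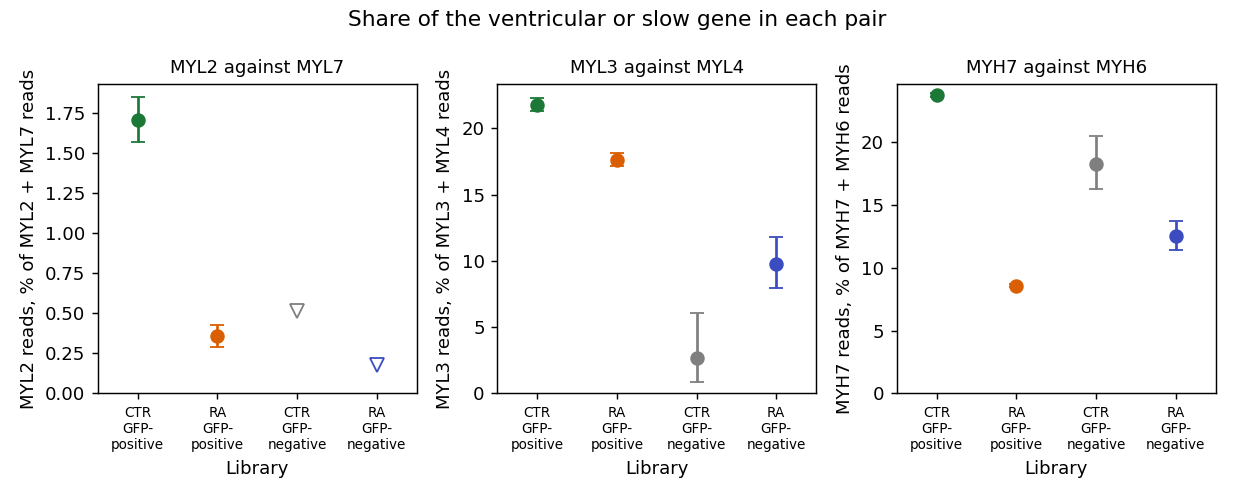
Share of the reads of each isoform pair that came from the ventricular or slow gene, in percent of the pair, in each of the 4 libraries, with 95% Clopper-Pearson intervals for counting error; open triangles mark the share that a count of 0 allows. MYH7 was lower with RA in both fractions (23.7% to 8.57% and 18.3% to 12.5%), MYL2 was at 1.70% and 0.355% in the GFP-positive libraries, and MYL3 was highest in the GFP-positive libraries.

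MYH7B encodes a sarcomeric heavy chain of older origin and hosts a miRNA in an intron. It had 499.9 CPM in control and 294 CPM in RA-treated GFP-positive cells, and 20.9 CPM and 5.61 CPM in GFP-negative cells. Both differences with RA were towards lower levels, at ratios of 0.589 (0.573 to 0.605) in GFP-positive and 0.269 (0.207 to 0.351) in GFP-negative cells. The log2 difference of the latter, -1.73, was -1.29 with a pseudocount of 5 CPM in place of 1, and -0.73, under 2-fold, with scaling by the cardiomyocyte markers. Relative to MYH6 the ratio of MYH7B was 0.564 (0.548 to 0.580) and 0.539 (0.410 to 0.711) times that of the control in the respective fractions, a pair that was chosen after its values were seen, as was MYH7B with MYH7. Relative to MYH7, MYH7B was 1.87 (1.81 to 1.93) times as high with RA in GFP-positive cells, as it was the less reduced of the pair there, and 0.843 (0.617 to 1.15) times as high in GFP-negative cells, where a difference was not detectable at this depth.

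MYH10, the heavy chain gene of non-muscle myosin IIB, had 190.2 CPM in control and 309 CPM in RA-treated GFP-positive cells. In GFP-negative cells it had 802 CPM and 959.8 CPM. Its order over the libraries was the reverse of that of MYH7 and MYH7B, with the GFP-negative libraries highest, and RA-treated libraries were the higher of each fraction, by 1.63-fold (1.57 to 1.68) and 1.20-fold (1.16 to 1.24).

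Compared per kilobase of exon (CPM divided by the length of the union of annotated exons), MYH6 made up 69.4% of the 3 sarcomeric heavy chain genes in control and 87.0% in RA-treated GFP-positive cells. MYH7 made up 26.1% and 9.85%, and MYH7B 4.52% and 3.19%. In the GFP-negative libraries MYH6 made up 74.0% in the control and 82.2% with RA, and MYH7B 5.95% and 3.57%. On this scale, too, MYH6 held the larger share in each RA-treated library. With MYH10 counted in, its own share was 0.431% and 0.837% in GFP-positive cells and 36.6% and 60.6% in GFP-negative cells. These last shares depend on the length used for MYH10, whose annotated exons add up to 32700 bases against 7707 bases for its canonical transcript, and on the canonical lengths they were 1.55%, 2.89%, 67.4% and 84.5%.

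**Figure D2:**
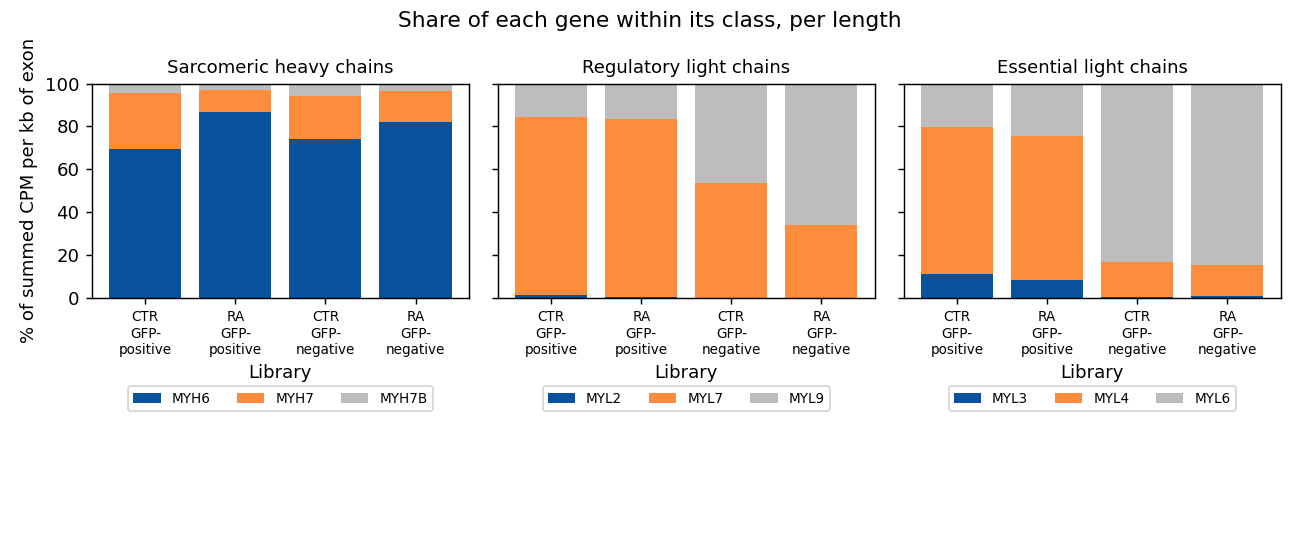
Share of each gene in the summed CPM per kb of exon of its class, in percent, for sarcomeric heavy chains (MYH6, MYH7, MYH7B), regulatory light chains (MYL2, MYL7, MYL9) and essential light chains (MYL3, MYL4, MYL6) in the 4 libraries. MYH6 held 69.4% and 87.0% of the heavy chain level in control and RA-treated GFP-positive cells, and MYL9 and MYL6 held larger shares in GFP-negative than in GFP-positive cells.

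The light chain genes of the atrial and ventricular pairs differ more in sequence than the heavy chains. The last 60 coding bases before the stop codon are shown for each pair, to let a reader see where reads of the partners part, with bases that have no identical partner in the alignment of the pair in capitals. They lie at chr12:111348884-111348943 (MYL2, minus strand), chr7:44178523-44178582 (MYL7, minus strand), chr3:46899737-46899907 (MYL3, minus strand, in 2 exons) and chr17:45299790-45300405 (MYL4, plus strand, in 2 exons) of GRCh37.
MYL2: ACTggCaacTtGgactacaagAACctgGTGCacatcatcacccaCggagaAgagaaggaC
MYL7: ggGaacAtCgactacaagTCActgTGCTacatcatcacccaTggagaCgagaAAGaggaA
MYL3: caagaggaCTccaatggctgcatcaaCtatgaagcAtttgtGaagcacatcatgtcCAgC
MYL4: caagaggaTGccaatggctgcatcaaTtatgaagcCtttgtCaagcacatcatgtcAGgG
Over the whole coding sequence, MYL2 and MYL7 were identical at 62.9% of alignment columns, gaps included, and MYL3 and MYL4 at 77.8%. Of the bases shown, 44 and 52 of 60 were identical.

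Among the regulatory light chains, MYL2 had 580 reads in the control library of GFP-positive cells, a level of 20.2 CPM (18.6 to 22.0), and 107 reads with RA, a level of 4.00 CPM (3.28 to 4.83). In the GFP-negative libraries it had 0 reads, with upper limits of the interval at 0.786 CPM in the control and 0.144 CPM with RA. MYL2 was therefore detected in the GFP-positive libraries alone, and 17 genes (0.152% of 11186), MYL2 included, had a log2 difference at or below its -2.09. That value was -1.49 with a pseudocount of 5 CPM, -1.65 with thinned libraries and -1.29 with scaling by the cardiomyocyte markers. MYL7 had 1167 CPM in control and 1123 CPM in RA-treated GFP-positive cells, and 124 CPM and 66.3 CPM in the GFP-negative cells. Its ratio with RA was 0.963 (0.948 to 0.978) in GFP-positive and 0.534 (0.486 to 0.588) in GFP-negative cells, and both directions turned with scaling by the cardiomyocyte markers, which is given further on. MYL2 took 1.70% (1.57 to 1.85) of the reads of the pair in control GFP-positive cells and 0.355% (0.291 to 0.429) with RA. In the GFP-negative libraries 0 of 583 reads in the control and 0 of 1701 reads with RA came from MYL2. The upper limits of these shares were 0.631% and 0.217%. The ratio of MYL2 to MYL7 in GFP-positive cells was 4.87-fold lower with RA (3.95 to 6.05). With every library thinned to 4371101 reads the change of this ratio was 0.311 (0.189 to 0.493), on 24 and 89 reads of MYL2, against 0.205 (0.165 to 0.253) with all reads.

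MYL9, the regulatory light chain gene of smooth muscle and non-muscle cells, had 428 CPM in control and 436 CPM in RA-treated GFP-positive cells. In GFP-negative cells it had 208 CPM and 247 CPM. The GFP-positive libraries were the higher ones, and the ratio with RA in GFP-positive cells, 1.02 (0.995 to 1.05), included 1 and turned below it with scaling by library size, by upper quartile or without the most abundant genes, and with thinned libraries. Per length it made up 15.7% and 16.7% of the 3 regulatory genes in control and RA-treated GFP-positive cells and 46.5% and 65.9% in GFP-negative cells. On canonical lengths these shares were 7.36%, 7.84%, 26.9% and 45.0%, so that MYL7 and not MYL9 held the larger share in RA-treated GFP-negative cells.

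Among the essential light chains, MYL3 had 200.4 CPM (195 to 206) in control and 143 CPM (139 to 148) in RA-treated GFP-positive cells. In GFP-negative cells its level was 1.06 CPM (0.346 to 2.48) on 5 reads in the control and 3.78 CPM (3.07 to 4.61) on 97 reads with RA. The order of the treatments was thus opposite in the fractions, with both GFP-negative levels under 10 CPM. MYL4 had 719 CPM in control and 668 CPM in RA-treated GFP-positive cells, and 39.0 CPM and 35.0 CPM in GFP-negative cells. The atrial essential light chain gene had ratios of RA to control of 0.929 (0.910 to 0.948) and 0.898 (0.765 to 1.06) in the fractions, the latter not distinguishable from 1 at this depth, and both turned above 1 with scaling by the cardiomyocyte markers. MYL3 took 21.8% (21.3 to 22.3) of the reads of this pair in control and 17.6% (17.1 to 18.2) in RA-treated GFP-positive cells. In GFP-negative cells its share was 2.66% (0.869 to 6.10) in the control and 9.75% (7.98 to 11.8) with RA. The ratio of MYL3 to MYL4 changed by a factor of 0.768 (0.734 to 0.804) with RA in GFP-positive cells and of 3.95 (1.60 to 12.6) in GFP-negative cells. It was 10.2 (4.29 to 31.8) times as high in GFP-positive as in GFP-negative cells of the control and 1.98 (1.60 to 2.48) times as high with RA. The ratio was thus higher in the GFP-positive library of each treatment, while its RA change had opposite directions in the fractions and in GFP-negative cells rested on 5 control reads of MYL3. With thinned libraries that change was 3.08 (0.983 to 11.4), an interval that includes 1. The ratio of MYL4 to MYL7, the atrial pair, a comparison chosen after its values were seen, changed by a factor of 0.965 (0.941 to 0.990) with RA in GFP-positive cells, or 1.01 (0.942 to 1.07) with thinned libraries, and by 1.68 (1.39 to 2.03) in GFP-negative cells.

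MYL6, the essential light chain gene of smooth muscle and non-muscle myosin, had 567 CPM in control and 663 CPM in RA-treated GFP-positive cells. In GFP-negative cells it had 532 CPM and 551 CPM. Its 4 values were the closest together of the 10 genes, with a ratio of GFP-positive to GFP-negative cells of 1.07 (1.02 to 1.11) in the control and 1.20 (1.18 to 1.23) with RA. The log2 difference of the control turned to -0.01 with scaling by library size, and those of both treatments turned negative, to -3.89 and -4.48, with scaling by the cardiomyocyte markers.

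**Figure D3:**
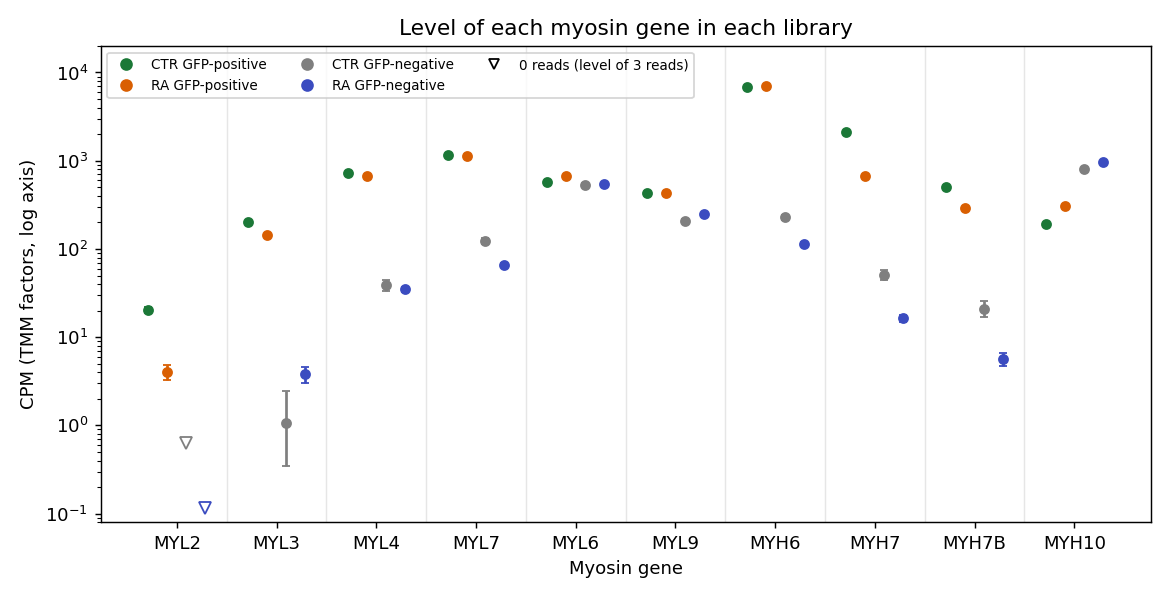
CPM of each of the 10 genes in the 4 libraries on a log axis, with exact Poisson 95% intervals; open triangles mark the level of 3 reads for libraries with 0 reads of MYL2. MYH6 reached 6782 and 7088 CPM in the GFP-positive libraries, MYL6 stayed between 532 and 663 CPM in all 4, and MYH10 was higher in the GFP-negative libraries.

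Levels of different genes can be compared per length only. In CPM per kb of the exon union, the order in control GFP-positive cells was MYH6 with 932, MYL7 with 801, MYL4 with 439, MYH7 with 350.2, MYL9 with 152, MYL6 with 128, MYL3 with 70.0, MYH7B with 60.6, MYL2 with 14.3 and MYH10 with 5.82 CPM per kb. MYH6 was thereby 20th and MYL7 22nd of 55538 genes with a length. In RA-treated GFP-positive cells MYH6 with 973, MYL7 with 771 and MYL4 with 408 CPM per kb were the highest, whereas MYH7 with 110.2 CPM per kb came after MYL9 with 155 and MYL6 with 149.9. The order rests on the length given to each gene more than on counting error. With the length of the canonical transcript, chosen after seeing the data, MYL7 with 1907 CPM per kb stood above MYH6 with 1142 CPM per kb in the control, and MYL6 with 801 CPM per kb came close to MYL4 with 841 CPM per kb. With RA, MYL7 was at 1836, MYH6 at 1193, MYL6 at 937 and MYL4 at 781 CPM per kb on these lengths, so that MYL6 stood above MYL4.

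Counted over the 10 genes, RA-treated against control GFP-positive cells gave 0 genes at least 2-fold higher, where 4.45% of all 11186 genes tested were, and 2 genes at least 2-fold lower, MYL2 and MYH7, where 1.86% of all genes were. The other 8 differed by less than 2-fold, and the median log2 difference of the 10 was -0.08 against 0.02 over all genes. MYH7B at -0.76 and MYL3 at -0.48 were next below, and MYH10 at 0.70 and MYL6 at 0.23 were the highest. With scaling by the cardiomyocyte markers, a count added after seeing the data, 1 gene was at least 2-fold higher (MYH10) and 1 lower (MYH7), as MYL2 then was under 10 CPM in both libraries. All 5677 genes tested with that scaling had a median log2 difference of 0.39. The shares of all genes given above hold for the main scaling only. MYL4, MYL7, MYL9 and MYH6 lay closest to equal levels and each changed sign under at least 1 of the scalings. RA-treated and control cells grew as separate cultures, so that RA and a difference between cultures cannot be told apart.

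In GFP-negative cells, RA-treated against control, 8 of the 10 genes had at least 10 CPM in either library. Of these, 0 were at least 2-fold higher, where 5.42% of 11606 genes were, and 3 were at least 2-fold lower, MYH6, MYH7 and MYH7B, where 3.58% were. The sarcomeric heavy chains were thus the lower ones, and MYH6, at a 2.01-fold lower level (1.87 to 2.15), stood at the threshold itself and turned direction with scaling by the cardiomyocyte markers. MYL7 was 1.87-fold lower (1.70 to 2.06), passed 2-fold when scaled by library size, and also turned with the markers. MYL6 had a ratio of 1.04 (0.993 to 1.08), MYL9 of 1.19 (1.11 to 1.28) and MYH10 of 1.20 (1.16 to 1.24), and the sign of MYL6 turned under 3 of the scalings. The median log2 difference of the 8 genes was -0.52 against 0.08 over all genes. In a bulk sample, fewer cells that carry a transcript and less of it per cell cannot be told apart. The cardiomyocyte markers outside the myosin genes moved alongside, with 6 of 13 tested at least 2-fold lower (TNNC1, ACTN2, TTN, MYBPC3, RYR2 and LDB3), 0 higher and a median log2 difference of -0.86. Their part in the result was not tested. When each library was set to the same median level of these markers, a scaling that moved the median of all genes by 1.13 in this comparison, the log2 differences of MYH7 and MYH7B were -0.50 and -0.73, and that of MYH6 turned to 0.14, of MYL7 to 0.24 and of MYL4 to 0.99. The others were 1.20 for MYL6, 1.40 for MYL9, 1.40 for MYH10 and 2.64 for MYL3. The calls of lower heavy chain genes were thus lost with that scaling, which gave 0 genes at least 2-fold lower and 4 higher (MYL3, MYL6, MYL9 and MYH10), a count added after seeing the data. All 16145 genes tested with that scaling had a median log2 difference of 1.22. The shares of all genes given above hold for the main scaling only. Scaling by library size, and the same without mitochondrial and the most abundant genes, moved that median by -0.13 here. In GFP-positive cells scaling by the markers moved the median of all genes by 0.36, and it left MYL2 at -1.29 and MYH7 at -1.28, with MYH7B at -0.37, MYL3 at -0.10, MYL4 at 0.28, MYL9 at 0.41, MYL7 at 0.33, MYH6 at 0.45, MYL6 at 0.61 and MYH10 at 1.07.

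**Figure D4:**
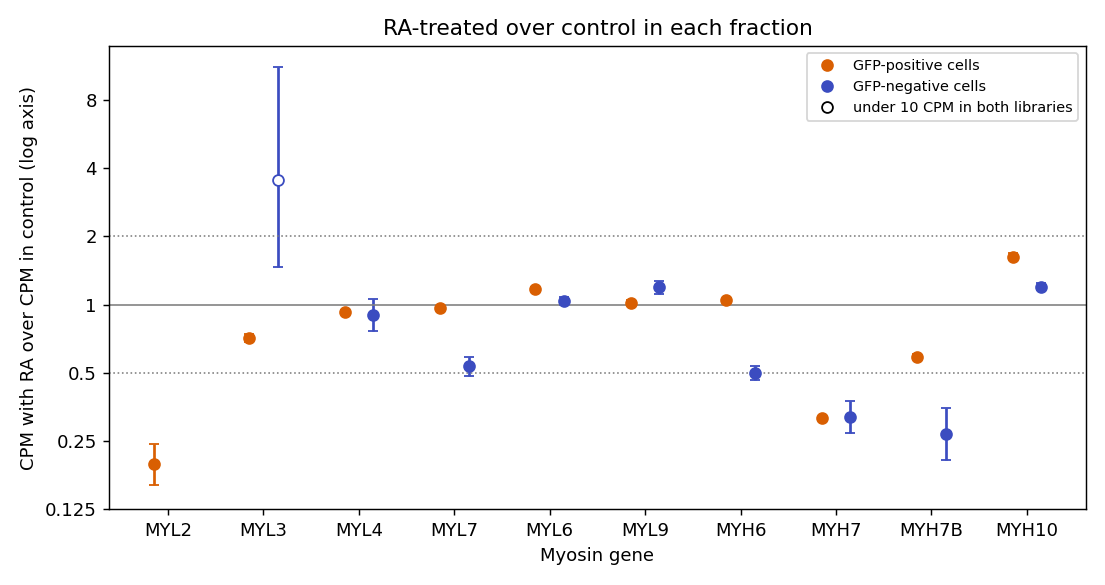
CPM with RA over CPM in the control on a log axis for each gene, in GFP-positive and GFP-negative cells, with 95% Clopper-Pearson intervals; dotted lines mark 2-fold either way, open symbols mark genes under 10 CPM in both libraries, and MYL2 has no value in GFP-negative cells, where it had 0 reads. MYH7 lies at 0.315 and 0.319 in the fractions, and MYL2 at 0.198 in GFP-positive cells. MYH6 lies at 1.05 and 0.499, the former turning below 1 under scaling by library size and the latter above 1 under scaling by the cardiomyocyte markers; MYL4 and MYL7 in both fractions, MYL9 in GFP-positive and MYL6 in GFP-negative cells also turn under a scaling.

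Between the fractions of the control, 8 of the 10 genes were at least 2-fold higher in GFP-positive cells, where 12.7% of 11806 genes were, and 1, MYH10, was at least 2-fold lower, where 13.8% were. The sort was on a cardiac reporter, so the higher level of sarcomeric genes in GFP-positive cells is largely what the groups were made by. MYH7 was 41.1-fold higher (36.2 to 46.9), MYH6 29.6-fold (27.9 to 31.5), MYH7B 24.0-fold (19.6 to 29.5), MYL4 18.4-fold (16.0 to 21.5) and MYL7 9.40-fold (8.66 to 10.2). MYL3, on 5 reads in GFP-negative cells, was 188-fold higher (80.6 to 579.9), and MYL2, set against 3 reads in place of 0, was at least 31.7-fold higher, with 25.7 as the lower limit of the exact interval. MYL9 was 2.06-fold higher (1.93 to 2.20), near the threshold, and was under it with scaling by library size, which moved the median of all genes by -0.10. With scaling by the cardiomyocyte markers, which the sort itself set apart and which moved the median of all genes by -3.67, the log2 differences of MYL7, MYL9 and MYL6 turned to -0.76, -2.94 and -3.89. Those of MYL3 (3.21), MYL2 (2.29), MYH7 (1.36), MYH6 (0.89), MYH7B (0.58) and MYL4 (0.21) were smaller but still positive, and that of MYH10 was -6.03. Counted after seeing the data, this left 2 genes at least 2-fold higher, MYL3 and MYH7, and 3 lower, MYL6, MYL9 and MYH10. MYL2, at 2.29, was not counted because it then was under 10 CPM in both libraries. All 13817 genes tested with that scaling had a median of -3.67. The shares of all genes given above hold for the main scaling only. MYH10 was 4.22-fold lower (4.05 to 4.40). The median log2 difference of the 10 genes was 4.29, or 4.34 with MYL2 at its bound, against 0.08 over all genes.

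With RA, 9 of the genes were tested between the fractions, as MYL2 was under 10 CPM in both, and 6 were at least 2-fold higher in GFP-positive cells, where 10.5% of 11850 genes were. Only MYH10 was at least 2-fold lower, at 3.11-fold (3.03 to 3.18), where 13.0% were. MYH6 was 62.0-fold higher (59.8 to 64.4), MYH7B 52.5-fold (44.5 to 62.3), MYH7 40.6-fold (36.8 to 44.8), MYL3 37.8-fold (30.9 to 46.8), MYL4 19.1-fold (17.8 to 20.4) and MYL7 16.9-fold (16.1 to 17.8), whereas MYL9 was 1.77-fold higher (1.71 to 1.82). The median of the 9 log2 differences was 4.22 against 0.02 over all genes. MYL2, on 107 reads against 0 set to 3, was at least 34.2-fold higher, with 27.4 as the lower limit of the exact interval. Scaling by the markers moved the median of all genes by -4.39 here and turned MYL4 to -0.50, MYL7 to -0.67, MYL9 to -3.92 and MYL6 to -4.48. It left MYH6 at 1.20, MYL2 at 1.00, MYH7B at 0.94, MYH7 at 0.58 and MYL3 at 0.47, with MYH10 at -6.37. Counted after seeing the data, 1 gene, MYH6, was then at least 2-fold higher and 3 were lower, MYL6, MYL9 and MYH10. All 15897 genes tested with that scaling had a median of -4.43. The shares of all genes given above hold for the main scaling only.

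The GFP-negative cells held low levels of the sarcomeric genes, and these were not a fixed fraction of the GFP-positive level. As a percentage of the level in GFP-positive cells, MYL7 was at 10.6% (9.78 to 11.5) in the control, MYL4 at 5.42% (4.66 to 6.27), MYH7B at 4.17% (3.39 to 5.09), MYH6 at 3.38% (3.18 to 3.59), MYH7 at 2.43% (2.13 to 2.76) and MYL3 at 0.531% (0.172 to 1.24). The 14 cardiomyocyte markers outside the myosin genes had a median of 4.81%, with MYBPC3 lowest at 1.51% and TNNI3 highest at 47.8%. With RA the percentages were 5.90% for MYL7, 5.24% for MYL4, 2.64% for MYL3, 2.46% for MYH7, 1.91% for MYH7B and 1.61% for MYH6, and the markers had a median of 3.16%, from 0.715% for MYBPC3 to 47.4% for TNNI3. MYH7 and MYL4 were thus at nearly the same percentage in both treatments, MYH6, MYL7 and MYH7B at a lower one with RA, and MYL3 at a higher one. MYL6 was at 93.7% and 83.1%, MYL9 at 48.6% and 56.7%, and MYH10 at 422% and 311% in control and RA-treated cells.

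**Figure D5:**
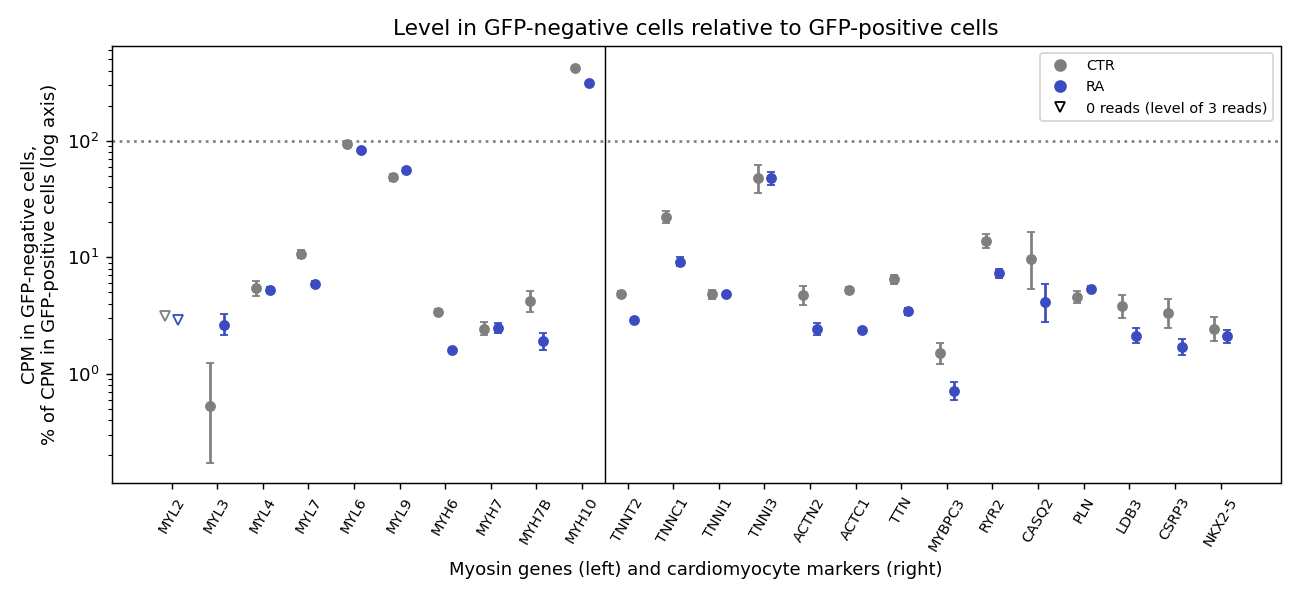
CPM in GFP-negative cells as a percentage of CPM in GFP-positive cells of the same treatment, on a log axis, for the 10 myosin genes (left) and 14 cardiomyocyte markers (right), with 95% Clopper-Pearson intervals; triangles mark the level of 3 reads for MYL2, and the dotted line marks equal levels. Among genes with reads in every library, MYL3 lies lowest in the control at 0.531%, below the lowest marker, MYBPC3 at 1.51%, and MYH10 lies above equal levels in both treatments, whereas with scaling by the markers MYL7, MYL9 and MYL6 (and MYL4 with RA) would lie above equal levels as well.

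Other genes of the myosin family were read beside the 10. Of 10 other class II heavy chain genes, all of them counted, 3 had at least 10 CPM in a library, MYH9, MYH11 and MYH14, and the skeletal and extraocular genes were below that level in every library. MYH11, the smooth muscle heavy chain gene, had 3.35 CPM in control and 114.8 CPM in RA-treated GFP-positive cells, and 23.2 CPM and 28.4 CPM in GFP-negative cells. It was the 1 gene of the 3 at least 2-fold higher with RA in GFP-positive cells, where 4.45% of all genes were, at 34.3-fold (28.0 to 42.4), and in GFP-negative cells the ratio was 1.22 (0.998 to 1.51). No gene of the 3 was at least 2-fold lower in GFP-positive cells, and 0 were higher or lower in GFP-negative cells, against 1.86%, 5.42% and 3.58% of all genes. MYH9, a non-muscle heavy chain gene and with the highest level per length of the list in every library, had 282 and 352 CPM in control and RA-treated GFP-positive cells and 1061 and 1141 CPM in GFP-negative cells. MYH14 had 23.1 and 19.8 CPM, and 44.9 and 80.5 CPM. The 3 genes had a median log2 difference with RA of 0.32 in GFP-positive cells, against 0.02 over all genes, and of 0.28 in GFP-negative cells, against 0.08.

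Of 7 other light chain genes, 6 were matched, MYLPF was not analysed here, and 4 had at least 10 CPM in a library. With RA, 0 of the 4 were at least 2-fold higher or lower in either fraction, where 4.45% and 1.86% of all genes were in GFP-positive and 5.42% and 3.58% in GFP-negative cells. The medians were 0.05 and -0.01, against 0.02 and 0.08 over all genes. The non-muscle regulatory genes MYL12A and MYL12B were at 92.4 and 66.4 CPM in control GFP-positive cells and at 244 and 186 CPM in control GFP-negative cells. In RA-treated cells they were at 110.4 and 97.7 CPM, and at 285 and 276 CPM. Like MYH10 and MYH9, both were at least 2-fold lower in GFP-positive cells of both treatments, as 13.8% (control) and 13.0% (RA) of all genes were. MYL5 and MYL6B had ratios with RA of 0.775 (0.709 to 0.847) and 0.892 (0.817 to 0.974) in GFP-positive cells.

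Of 9 genes of the thick filament and of myosin binding, 5 had at least 10 CPM in a library, and all 5 were at least 2-fold higher in GFP-positive cells of both treatments, as 12.7% (control) and 10.5% (RA) of all genes were. With RA in GFP-positive cells 1 was at least 2-fold higher, MYOM2, which encodes a protein of the M-band, where 4.45% of all genes were, and 0 were lower, where 1.86% were, with a median of -0.45 against 0.02. MYOM2 had 15.4 CPM in control and 73.7 CPM in RA-treated GFP-positive cells, a ratio of 4.80 (4.33 to 5.33). MYBPC3, which encodes cardiac myosin-binding protein C, had 1329 and 769 CPM, a ratio of 0.578 (0.569 to 0.588). TTN, the gene of titin, had 1734 and 1043 CPM, a ratio of 0.602 (0.593 to 0.611). In GFP-negative cells 4 were tested and 2 were at least 2-fold lower with RA, MYBPC3 at 0.274 (0.210 to 0.360) and TTN at 0.318 (0.286 to 0.355), and 0 were higher, where 3.58% and 5.42% of all genes were, with a median of -1.10 against 0.08. Both genes are also among the cardiomyocyte markers.

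Of 16 genes for kinases, phosphatases, chaperones and turnover of myosin, 14 were tested in GFP-positive cells, where 1 was at least 2-fold higher with RA, MYLK, and 1 lower, TRIM54, against 4.45% and 1.86% of all genes, with a median of -0.05 against 0.02. MYLK, the kinase of smooth muscle regulatory light chains, had 18.4 CPM in control and 271 CPM in RA-treated GFP-positive cells, and 68.8 CPM and 125 CPM in GFP-negative cells. It was 14.7-fold higher (13.5 to 16.1) with RA in GFP-positive cells. TRIM54, a ubiquitin ligase of the sarcomere, had 52.0 CPM in control and 25.2 CPM with RA, a ratio of 0.485 (0.443 to 0.532), and TRIM63 had 97.3 and 63.9 CPM. PPP1R12B, a subunit of myosin phosphatase, had 505 and 593 CPM in GFP-positive cells and was the 1 gene of 10 tested that was at least 2-fold lower with RA in GFP-negative cells, at 0.376 (0.346 to 0.410), where 0 were higher, against 3.58% and 5.42% of all genes, and the median was -0.01 against 0.08. HSP90AA1, a chaperone gene with the highest level per length of the list in every library, had 661 and 666 CPM in GFP-positive cells. Between the fractions 7 of 14 were at least 2-fold higher in GFP-positive cells of the control and 8 of 14 with RA, against 12.7% and 10.5% of all genes, MYLK being the gene that was lower in the control and higher with RA.

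Of 21 regulators known to act on the cardiac myosin genes, 19 were tested in GFP-positive cells, where 2 were at least 2-fold higher with RA (NR2F1 and NR2F2) and 3 lower (HAND1, IRX4 and HEY2), against 4.45% and 1.86% of all genes, with a median of -0.11 against 0.02. In GFP-negative cells 19 were tested, 2 were higher (NR2F2 and THRB), 1 was lower (SOX6), against 5.42% and 3.58% of all genes, and the median was -0.10 against 0.08. HEY2, a repressor of atrial genes in the ventricle, had 66.0 CPM in control and 8.15 CPM in RA-treated GFP-positive cells, a ratio of 0.124 (0.107 to 0.142). IRX4, a ventricular homeobox gene, had 241 and 38.3 CPM, a ratio of 0.159 (0.148 to 0.169). NR2F2, an atrial nuclear receptor gene, had 27.0 and 534 CPM. THRB, which encodes a receptor of thyroid hormone, the hormone that sets the balance of MYH6 and MYH7 in many mammals, had 1.15 CPM (33 reads) and 6.92 CPM (185 reads) in GFP-positive cells. In GFP-negative cells it had 1.49 CPM (7 reads) and 17.0 CPM (437 reads). It was thus higher with RA in both fractions, at ratios of 6.01 (4.13 to 8.98) and 11.4 (5.50 to 28.6), although under 10 CPM in both GFP-positive libraries. GATA4 had 529.6 and 603 CPM in GFP-positive cells and NKX2-5 had 593 and 463 CPM, and per length NKX2-5 was the highest of the list in both GFP-positive and GATA4 in both GFP-negative libraries.

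Markers of other cells that the gates could hold were summed in each library. With RA, 4.45% of all genes tested in GFP-positive cells were at least 2-fold higher and 1.86% lower, at a median of 0.02, and in GFP-negative cells 5.42% were higher and 3.58% lower, at a median of 0.08, to set beside the counts of these lists. The most abundant gene of a list is here the 1 with the highest CPM per kb of the exon union. The fibroblast and stroma list (8 of 8 genes with at least 10 CPM in a library, 7 of them in control GFP-positive cells) summed to 3967 CPM in control and 15172 CPM in RA-treated GFP-positive cells, and to 32112 and 61608 CPM in GFP-negative cells, with COL3A1 the most abundant in every library and 7 of 7 tested genes at least 2-fold higher with RA in GFP-positive cells, at a median of 1.96. In GFP-negative cells 4 of 8 were (COL1A1, DCN, LUM and POSTN) and 0 were lower, at a median of 1.11, and TCF21 had a ratio of 0.725. The smooth muscle list (8 of 8, 7 of them in control GFP-positive cells, where DES and MYOCD are also cardiac genes, and 2 genes shared with other lists) summed to 1843 and 2881 CPM in GFP-positive and 1161 and 1798 CPM in GFP-negative cells, with TAGLN the most abundant in RA-treated GFP-negative cells and DES in the other libraries (ACTA2 in both GFP-negative libraries on canonical lengths), and 3 of 8 genes at least 2-fold higher with RA in GFP-positive cells (ACTA2, TAGLN and MYH11), at a median of 0.31. In GFP-negative cells 1 of 7 was (TAGLN) and 0 were lower, at a median of 0.28, and DES had a ratio of 0.847. The summed levels of both lists were thus higher with RA in both fractions, while TCF21 and DES were lower in GFP-negative cells. LMOD1 of the smooth muscle list was lower in GFP-positive cells, at a ratio of 0.812. The part of both lists in the result was not tested. No gene of either list was at 0 in any library. The cardiomyocyte list (14 of 14) summed to 18420.1 and 18160.4 CPM in GFP-positive cells and to 949 and 551 CPM in GFP-negative cells, with ACTC1 the most abundant in every library (TNNT2 in both controls on canonical lengths), no gene at 0, and 0 of 14 genes at least 2-fold higher or lower with RA in GFP-positive cells, at a median of -0.26.

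The skeletal muscle list (3 of 9 genes with at least 10 CPM in a library, 2 of them in control GFP-positive cells) summed to 372 and 408 CPM in GFP-positive and 29.8 and 25.5 CPM in GFP-negative cells, with CKM the most abundant in both GFP-positive libraries (ACTA1 with RA on canonical lengths) and ACTA1 in both GFP-negative libraries, both genes that heart muscle also expresses. CKM had 338 CPM in control and 158 CPM in RA-treated GFP-positive cells, and ACTA1 had 21.7 and 234.8 CPM, so that these genes differed in opposite directions with RA. MYOG, a gene of skeletal muscle, had 5.30 and 11.5 CPM. Of the 3 genes tested there, 2 were at least 2-fold higher with RA (MYOG and ACTA1) and 1 was lower (CKM). MYOD1, MYF5, MYF6 and MYH8 were at 0 reads in control GFP-positive cells and MYF5 in RA-treated GFP-positive and in control GFP-negative cells. The endothelial list (5 of 6 genes matched, PECAM1 not analysed here, 4 with at least 10 CPM in a library and 1 of them in control GFP-positive cells) summed to 16.9 and 16.3 CPM in GFP-positive and 280 and 262 CPM in GFP-negative cells, with KDR the most abundant in every library and VWF at 0 in control GFP-positive cells. The list of gut and liver endoderm and epithelium (7 of 8, 1 of them in control GFP-positive cells) summed to 36.9 and 90.6 CPM, and to 233 and 919 CPM, with EPCAM the most abundant in both GFP-positive libraries, TTR in control GFP-negative cells (73.0 CPM) and AFP in RA-treated GFP-negative cells (464.6 CPM), and FOXA2 at 0 in both controls. The neural and eye list (7 of 7, 1 of them in control GFP-positive cells) summed to 48.2 and 102 CPM, and to 756 and 191 CPM, with PMEL the most abundant in both controls, STMN2 in both RA-treated libraries and no gene at 0. The pluripotency list (3 of 4, 1 of them in control GFP-positive cells) summed to 12.9 and 16.9 CPM, and to 23.9 and 60.2 CPM, with POU5F1 the most abundant in RA-treated GFP-negative cells and DNMT3B in the other libraries, NANOG at 0 in both controls and POU5F1 at 0 in control GFP-negative cells. In GFP-negative cells 4 of 7 tested genes of the endoderm list were at least 2-fold higher with RA and 1 lower, at a median of 2.75, 1 of 7 of the neural list were higher and 5 lower, at a median of -2.01, and 2 of 3 of the pluripotency list were higher and 0 lower, at a median of 1.91. In GFP-positive cells 3 of 4 tested genes of the endoderm list were at least 2-fold higher with RA (AFP, EPCAM and CDH1), at a median of 1.00. Of the neural list 2 of 3 were (STMN2 and MAP2), at a median of 1.74, and 0 of either list were lower. The levels of these lists thus differed between the GFP-negative libraries, and those of the endoderm and neural lists also between the GFP-positive libraries. The part of the lists in the result was not tested.

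The genes closest in pattern to 6 of the myosin genes were found as those with the smallest Euclidean distance between centred log2(CPM + 1) values over the 4 libraries, among 12258 genes. For MYH7 they were MYH7B at 0.71, CORIN at 0.92 and XIRP1 at 1.00, so the nearest gene was itself one of the 10. For MYH6 they were CSRP3 at 0.28, NKX2-5 at 0.45 and LDB3 at 0.47. For MYL7 they were SRPK3 at 0.13, CASQ2 at 0.26 and PLPP7 at 0.31, and for MYL4 TESC at 0.16, PLN at 0.19 and MYOCD at 0.23. For MYL3 they were LRRC10 at 0.40, LINC00881 at 0.46 and FBXO40 at 0.85, and for MYL2 TSPAN32 at 0.42, TRDN-AS1 at 0.43 and PPP1R3A at 0.52. In GFP-positive cells TRDN-AS1 had 645 reads in the control and 83 with RA, and PPP1R3A had 425 and 101. Both were near 0 in GFP-negative cells, with 0 reads in the control and 6 with RA. TSPAN32, the nearest, had 1816 and 559 reads in GFP-positive cells. In GFP-negative cells it had 13 reads in the control and 56 with RA, where MYL2 had 0.

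The sarcomeric heavy chain genes each carry a miRNA in an intron on their own strand, MIR208A in intron 29 of MYH6, MIR208B in intron 30 of MYH7 and MIR499A in intron 22 of MYH7B by the GRCh37 annotation. The mature sequences, from RefSeq on GRCh38.p14, are shown to compare their seeds, bases 2 to 8 in capitals, with miR-208a and miR-208b sharing one seed and differing at 3 of 22 bases.
hsa-miR-208a-3p: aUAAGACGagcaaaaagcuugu
hsa-miR-208b-3p: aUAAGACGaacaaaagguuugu
hsa-miR-499a-5p: uUAAGACUugcagugauguuu
The libraries were made for long RNA and give no level of the mature miRNAs. Over the hairpin of MIR208A 50 reads were counted in control and 14 in RA-treated GFP-positive cells and 0 in both GFP-negative libraries, and over those of MIR208B and MIR499A no library had more than 6 reads. The annotation also places an antisense gene, ENSG00000258444, over 142 exon bases of MYH7, and the antisense gene had 4 reads in control and 3 in RA-treated GFP-positive cells and 0 and 3 in GFP-negative cells. Counting left strand out and used the intersection-nonempty mode, in which reads that lie wholly on bases shared by both genes are assigned to neither. The overlaps here are those of GENCODE, and the Ensembl genes that the authors counted with may overlap differently. If they overlap alike, MYH7 reads confined to those bases were not counted. The same holds for 808 exon bases that MYL6 shares with MYL6B and SMARCC2, 364 that MYH10 shares with NDEL1 and RN7SL129P, and 172 that MYH7B shares with GSS and TRPC4AP.

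Promoters were read from RefSeq on GRCh38.p14, where 5 of the 10 genes were matched (MYL3 by 2 windows, MYL7, MYL6, MYH6 and MYH10); MYL2, MYL4, MYL9, MYH7 and MYH7B were not. The windows, from 250 bases before to 50 bases after the start, were searched on both strands, and shares of all 35116 windows with each motif are given as background. The M-CAT motif, spelled CATTCCT, was in 4.77%, the CArG box, which reads the same on both strands, in 1.29% and the MEF2 site in 2.99%. The GATA factor motif, spelled AGATAA, was in 10.3%. The short NKX2-5 motif, spelled AAGTG, was in 43.1%. The nuclear receptor motif, spelled AGGTCA, was in 13.8%. No matches of different motifs overlapped in the windows of the 5 genes. The 3 windows with a match, of MYL7, MYH6 and MYL3, were chosen for display after their values were seen, and are shown by the 250 bases before the start, at chr7:44141333-44141582, chr14:23408274-23408523 and chr3:46861685-46861934, all on the minus strand, with matches in capitals.
MYL7: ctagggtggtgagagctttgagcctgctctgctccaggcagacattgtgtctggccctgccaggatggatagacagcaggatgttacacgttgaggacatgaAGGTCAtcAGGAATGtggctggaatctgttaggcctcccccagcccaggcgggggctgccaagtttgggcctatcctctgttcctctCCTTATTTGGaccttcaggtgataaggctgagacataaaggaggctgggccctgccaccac
MYH6: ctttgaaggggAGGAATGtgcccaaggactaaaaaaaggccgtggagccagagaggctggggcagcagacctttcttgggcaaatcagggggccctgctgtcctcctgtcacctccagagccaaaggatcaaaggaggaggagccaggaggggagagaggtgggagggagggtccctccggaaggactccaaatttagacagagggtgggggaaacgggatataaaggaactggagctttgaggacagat
MYL3: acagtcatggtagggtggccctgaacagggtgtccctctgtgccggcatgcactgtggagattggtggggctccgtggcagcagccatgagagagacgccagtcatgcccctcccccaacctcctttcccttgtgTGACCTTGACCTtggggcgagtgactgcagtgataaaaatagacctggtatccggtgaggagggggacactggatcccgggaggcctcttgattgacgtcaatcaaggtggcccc
In MYL7 the matches were AGGTCA from 148 to 143, M-CAT on the opposite strand from 140 to 134 and a CArG box from 61 to 52 bases before the start. In MYH6 the match was M-CAT on the opposite strand from 239 to 233 bases before the start, and in MYL3 it was AGGTCA on the opposite strand at 115 to 110 and again at 109 to 104 bases before the start. The windows of MYL6 and MYH10 and the other window of MYL3 held none of these letters. A match describes the sequence, and binding was not measured.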

How the data were processed

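RNA sequencing counts of 4 sorted populations were used, with 1 library in each. Paired reads of 75 bases were trimmed by the authors (SICKLE) and placed on a custom hg19 genome (GSNAP, SAMtools 0.1.18) where they had a unique position, and the authors obtained the deposited read counts per Ensembl gene with HTSeq 0.6.1p1 without strand, in its intersection-nonempty mode; the Ensembl release is not given in the sources used here. Strand and shared sequence therefore limit overlapping genes and near-identical stretches. TMM factors from edgeR 4.0.16 in R 4.3.3 gave CPM, and differences are of log2(CPM + 1). Genes that reached 10 CPM in 1 of the libraries compared were counted at a threshold of 2-fold in the ratio of CPM, without a pseudocount. Intervals are at the 95% level, the floor for a count of 0 is 3 reads, and 3 reads were 0.639 CPM in the control GFP-negative library and 0.105 to 0.117 CPM in the others. PCR copies are not independent molecules. Lengths, exons and coding sequences came from GENCODE on GRCh37, miRNAs and promoters from RefSeq on GRCh38.p14; intervals used scipy 1.17.1, alignments biopython 1.88. The members and lists were chosen with earlier results of these data known. Named in lists are the genes most raised and lowered and that with the highest CPM, and other genes named were chosen after their values were seen. Scaling (DESeq2 1.42.0 size factors among others), pseudocount, thresholds, filter, depth and gene length were varied. The calls and intervals were run on simulated counts with known folds and counting error alone. That run does not cover variation between cultures or the scaling.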

Additional observations from a re-analysis of the deposited data

Results flagged for a closer look

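The direction of the RA difference was opposite in the sorted fractions for 2 of the genes, MYL3 and MYH6, for 1 of the 2 planned pairs with a value in both fractions, MYL3 with MYL4 (MYL2 with MYL7 had none in GFP-negative cells, at 0 reads of MYL2), and for 2 of 3 pairs chosen after their values were seen, MYL4 with MYL7 and MYH7B with MYH7. No difference from one fraction to the other was tested. MYL3 had log2 differences of -0.48 in the GFP-positive and 1.21 in the GFP-negative libraries, the latter on 5 control reads and 97 RA reads. For MYH6 the difference was 0.064 in GFP-positive cells, where scaling by library size turned it to -0.01, and -0.998 in the GFP-negative cells, where scaling by the cardiomyocyte markers turned it to 0.14. The ratio of MYL3 to MYL4 changed by a factor of 0.768 in GFP-positive cells but 3.95 in GFP-negative cells. With thinned libraries the latter was 3.08 (0.983 to 11.4) on 12 and 5 reads of MYL3, an interval that includes 1. The ratio of MYL4 to MYL7 changed by 0.965 (0.941 to 0.990) in GFP-positive and 1.68 (1.39 to 2.03) in GFP-negative cells, and thinning turned the former to 1.01 (0.942 to 1.07). For MYH7B over MYH7 the changes were 1.87 (1.81 to 1.93) and 0.843 (0.617 to 1.15), the latter with an interval that includes 1.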

How the results depend on the processing

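No paired analysis was possible because each condition has 1 library. Of the values that answer a comparison, 73 were classed as the same under the alternatives and 16 as moved. A count classed as the same could still differ, as 2 genes lower with RA in GFP-positive cells became 3 at 1.5-fold. A ratio classed as moved could keep its direction. Of the 16 that moved, 8 were counts with equal median levels of the cardiomyocyte markers, added after seeing the data. Higher and lower genes then numbered 1 (MYH10) and 1 (MYH7) with RA in GFP-positive cells, 4 (MYL3, MYL6, MYL9 and MYH10) and 0 with RA in GFP-negative cells, 2 (MYL3 and MYH7) and 3 (MYL6, MYL9 and MYH10) between the fractions of the control, and 1 (MYH6) and 3 (MYL6, MYL9 and MYH10) between those with RA. MYL2 was under 10 CPM in all 4 libraries with that scaling and so was not counted. All genes tested then had medians of 0.39, 1.22, -3.67 and -4.43 in these comparisons. The shares of all genes given earlier hold for the main setting only, and none is given for counts under alternatives. At 1.5-fold, 1 gene (MYH10) was higher with RA in GFP-positive cells, and at 4-fold 1 (MYL2) was lower. In GFP-negative cells 1 gene (MYL3) was higher with RA once levels from 1 CPM were admitted, and 0 were lower at 4-fold, as 0 were between the fractions with RA. These follow from the thresholds themselves. Thinned to 4371101 reads, the RA change in GFP-positive cells was 0.311 for MYL2 over MYL7 and 0.293 for MYH7 over MYH6, and the change between fractions with RA was 2.54 for MYL3 over MYL4; the cause was not tested. Of 351 log2 differences of single genes under alternatives, 21 changed sign, in 5 genes, MYL4, MYL7, MYL6, MYL9 and MYH6. A called difference reversed in 5 cases, all with that scaling: MYH6 with RA in GFP-negative cells (0.14), MYL7 (-0.76) and MYL9 (-2.94) between the fractions of the control, and MYL4 (-0.50) and MYL7 (-0.67) between those with RA. It shifts every gene alike by construction, by 1.15, -3.99 and -4.75 in these comparisons. Scaling by library size gave 4 genes lower with RA in GFP-negative cells, with MYL7, and 7 higher between fractions of the control, without MYL9. Thinning, added for MYL4 over MYL7 after seeing the data, turned its RA change in GFP-positive cells to 1.01. A pseudocount of 5 CPM brought the log2 differences of genes with low levels nearer to 0, MYL2 with RA in GFP-positive cells to -1.49 and MYH7B with RA in GFP-negative cells to -1.29. Canonical transcript lengths, an alternative chosen after seeing the data, changed the order of genes per length in both fractions of both treatments. In control GFP-negative cells MYH10 had 24.5 CPM per kb of the exon union, below MYL9 with 73.9. On canonical lengths it had 104 CPM per kb, above MYL9 with 74.5. In GFP-negative cells depth limits MYL2, at 0 reads in both libraries, and MYL3, at 5 reads in the control.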
